A study of Mus musculus with 6 samples.

Results

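Transcripts of 10 genes that encode subunits and loaders of cohesin, out of 54532 genes counted, were compared between control and Eef1g-cKO leptotene/zygotene (L/Z) spermatocytes. The rule that picks them names the genes and uses no level, although earlier results of these data were known when it was written. They were Smc1b, Rec8, Rad21l and Stag3, whose proteins are specific to meiosis, Smc1a, Smc3, Rad21 and Stag2, which serve mitotic cells or both kinds of division, and the loader genes Nipbl and Mau2.

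Cohesin is a ring that holds sister chromatids together. It is built from a heterodimer of SMC proteins, a kleisin that closes the ring and a STAG protein that docks on the kleisin. In germ cells entering meiosis the mitotic SMC1A, RAD21 and STAG1 or STAG2 are joined or replaced by SMC1B, by REC8 or RAD21L and by STAG3, while SMC3 is shared by mitotic and meiotic complexes. Meiotic cohesin forms the core on which the chromosome axis, the protein backbone of each meiotic chromosome, is assembled, and the NIPBL-MAU2 heterodimer loads cohesin onto chromatin.

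The samples were 6 libraries of sorted L/Z spermatocytes from mouse testes at 12 dpp, 3 from controls that the labels give as wild type and 3 from Eef1g-cKO mice, all on the C57BL/6J strain. The Eef1g-cKO mice carry a floxed Eef1g allele that Stra8-GFPCre recombines, with exons 2 to 7 as the deleted stretch. The protein of Eef1g, eEF1G, belongs to eEF1, a complex that serves translation elongation. The Stra8-GFPCre transgene acts from type A1 spermatogonia onwards, so earlier germ cells and somatic cells keep the gene. The labels number the libraries 1 to 3 in each group without saying that they came from separate animals, so the p-values given here measure the spread between these samples.

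Libraries held between 763133 and 2617648 reads assigned to genes, and 3 reads, taken as the floor of detection, equalled 1.18 to 4.63 CPM. CPM is a gene's reads per 1000000 reads of its library, with library sizes scaled by TMM. Eef1g-cKO replicate 3 was the shallowest library and had the highest share of nuclear rRNA reads, 9.23% against 2.73% to 6.29% in the others. Fewer genes were detected in every Eef1g-cKO library (11174 to 14514) than in any control (14903 to 15761), the deepest library included, and the part of this in the results was not tested. Eef1g itself, whose exons outside the deletion are still counted, had 222, 226 and 212 CPM in controls and 139, 151 and 119 CPM in Eef1g-cKO libraries. Its log2 fold change was -0.68 with an SE of 0.20 (adjusted p = 0.029 by edgeR). The groups did not overlap, and the call held in 9 of 17 alternative fits, whose adjusted p ran from 0.00914 to 0.257.

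The start regions of the members differed in base composition. The 250 bases upstream of the RefSeq transcription start (GRCm38.p6, RefSeq promoter table, 7 of 10 members matched, without Rad21, Stag2 and Nipbl) are shown for the meiosis-specific genes and for the SMC genes Smc1a and Smc3, against which levels of Smc1b are set in the results. Capitals mark the searched motifs that lie wholly within the 250 bases, on either strand: TCCCGC, the core bound by E2F factors, and CACGTG, an E-box. Positions and strands are chr15:85131958-85132207 (minus) for Smc1b, chr14:55617916-55618165 (plus) for Rec8, chr2:151668534-151668783 (minus) for Rad21l, chr5:138280259-138280508 (plus) for Stag3, chrX:152016178-152016427 (plus) for Smc1a and chr19:53600146-53600395 (plus) for Smc3. All are written 5′ to 3′ in the direction of transcription.
Smc1b: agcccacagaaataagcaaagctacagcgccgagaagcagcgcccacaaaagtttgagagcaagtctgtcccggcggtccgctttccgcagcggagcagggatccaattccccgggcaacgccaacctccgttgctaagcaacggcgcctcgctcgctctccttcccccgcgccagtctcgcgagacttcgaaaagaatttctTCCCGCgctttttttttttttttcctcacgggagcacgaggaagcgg
Rec8: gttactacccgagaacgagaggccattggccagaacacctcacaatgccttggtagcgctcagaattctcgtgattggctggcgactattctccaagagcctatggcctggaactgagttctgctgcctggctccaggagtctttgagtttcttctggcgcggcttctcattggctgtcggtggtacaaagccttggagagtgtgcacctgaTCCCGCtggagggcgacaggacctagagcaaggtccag
Rad21l: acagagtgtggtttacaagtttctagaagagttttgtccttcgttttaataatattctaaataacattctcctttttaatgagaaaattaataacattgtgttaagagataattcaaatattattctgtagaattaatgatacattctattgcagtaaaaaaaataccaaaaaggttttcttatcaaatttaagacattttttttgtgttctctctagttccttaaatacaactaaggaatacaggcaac
Stag3: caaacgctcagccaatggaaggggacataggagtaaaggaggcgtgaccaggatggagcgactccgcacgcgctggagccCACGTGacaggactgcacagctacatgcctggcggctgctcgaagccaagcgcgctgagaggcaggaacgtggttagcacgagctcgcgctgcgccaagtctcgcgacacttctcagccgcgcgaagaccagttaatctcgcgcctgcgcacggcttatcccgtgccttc
Smc1a: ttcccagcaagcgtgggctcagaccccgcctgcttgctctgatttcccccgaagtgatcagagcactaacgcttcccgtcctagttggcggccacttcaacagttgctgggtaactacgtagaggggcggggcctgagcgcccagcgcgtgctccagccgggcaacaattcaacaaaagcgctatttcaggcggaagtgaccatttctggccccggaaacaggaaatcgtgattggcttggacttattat
Smc3: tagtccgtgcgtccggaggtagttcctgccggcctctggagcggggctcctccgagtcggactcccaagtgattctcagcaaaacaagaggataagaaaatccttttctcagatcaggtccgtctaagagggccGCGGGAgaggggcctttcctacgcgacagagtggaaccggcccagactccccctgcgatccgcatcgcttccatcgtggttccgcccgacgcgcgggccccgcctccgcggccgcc

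TCCCGC was found on either strand in the 300-base windows, 250 bases before to 50 after the start, of 5 of the 7 matched members. It began 47 bases before the start in Smc1b, 38 before it in Rec8, 2 before it in Stag3 (spanning the start, so not in capitals), 116 before and 29 after it in Smc3, and 39 after it in Smc1a (outside the printed bases). These letters occurred in 20.0% of all 32851 promoter windows of the table, and in 43.2% of the 12417 with at least 10 CpG in their upstream part. All 5 members with a match belonged to that CpG-rich class, with 10 CpG in Rec8 and 16 to 26 in the other four. CACGTG was found in Stag3, 170 bases before the start, and at a second start of Mau2, against 7.2% of all windows. The STRA8 motif CNCCTCAG was found at the first start of Mau2 (7.9% of all windows) and the NRF1 core GCATGCGC in none of the 7 (2.7%).

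Rad21l stood apart from the other meiosis-specific genes by composition. Its upstream 250 bases had 25.6% GC and 1 CpG, whereas Smc1b had 58.0% and 25, Rec8 56.0% and 10, Stag3 62.8% and 26, and the median over all promoters was 52.4% and 6. None of the searched motifs was found in the Rad21l window. Whether a motif match is bound was not measured.

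Smc1b rose and Rad21 fell in Eef1g-cKO L/Z spermatocytes. The ratios of Rad21l to Rad21 and of Stag3 to Stag2 were higher in every Eef1g-cKO library than in any control. The Rec8 to Rad21 ratio was also separated but rested on few reads, and the Smc1b to Smc1a ratio overlapped. With 3 against 3 libraries none of these 4 ratios could pass (smallest possible exact permutation p = 0.1). Among the 10 members, 9 passed the filter on low counts, and of these Smc1b, Rad21l, Stag3 and Nipbl passed the test as higher, Rad21 passed as lower, and Smc1a, Smc3, Stag2 and Mau2 did not pass (edgeR quasi-likelihood F test, Benjamini-Hochberg adjusted p under 0.05 over 8513 genes). Over all tested genes 7.8% passed as higher and 6.01% as lower. With an absolute log2 fold change over 1 required as well, Smc1b and Rad21l were higher and Rad21 was lower, against 3.42% and 4.96% of all tested genes. The median log2 fold change of the 9 tested members was 0.44 and that of all tested genes -0.05. Without control replicate 1 or control replicate 3, Smc1b was the 1 member higher and Rad21 the 1 lower, and without Eef1g-cKO replicate 3, 2 members were higher and 1 lower. In bulk samples a smaller share of cells that express a gene and less RNA per cell cannot be told apart.

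**Figure D1:**
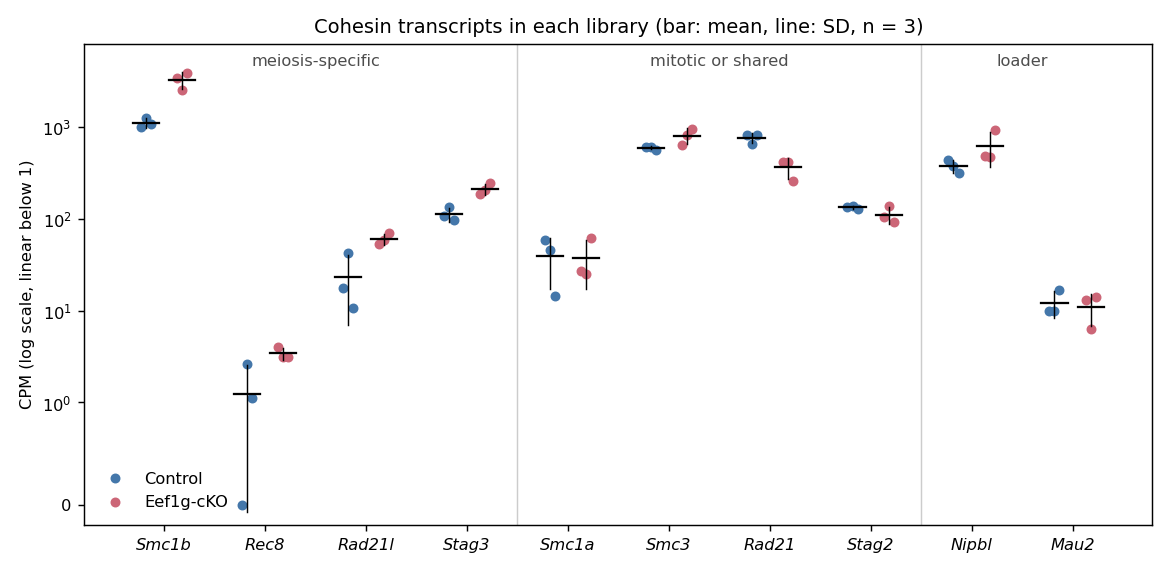
CPM (log scale, linear below 1) of the 10 cohesin genes in each of 3 control and 3 Eef1g-cKO libraries, with points for libraries, bars for group means and lines for SD. The 3 Eef1g-cKO points of Smc1b lie between 2555 and 3905 CPM, all above the controls, and those of Rad21 between 255 and 418 CPM, all below the controls.

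Smc1b, which encodes the meiosis-specific SMC1 protein, is the gene of 25 exons at chr15:85064689-85131964 on the minus strand (GRCm38). It had 998, 1254 and 1067 CPM in control replicates 1 to 3 and 3374, 2555 and 3905 CPM in Eef1g-cKO replicates 1 to 3. The lowest Eef1g-cKO library held more Smc1b than the highest control library. The group means were 1106 ± 133 and 3278 ± 680 CPM (SD, n = 3), and the fitted rise was 2.96-fold (log2 fold change 1.57, 95% interval 1.23 to 1.90, edgeR adjusted p = 6.02e-06). It passed in all 17 alternative fits, with log2 fold changes of 1.31 to 1.73.

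Rad21l, the gene of a meiosis-specific kleisin, lies at chr2:151645404-151668533 on the minus strand. It was counted with 23, 80 and 19 reads in controls and 66, 150 and 45 reads in Eef1g-cKO libraries, which gave 17.6, 42.0 and 10.6 CPM and 53.4, 58.8 and 69.5 CPM. The groups did not overlap, but the control libraries were uneven, with control replicate 2 far above the other two. The rise passed narrowly (log2 fold change 1.35, SE 0.44, 95% interval 0.42 to 2.28, edgeR adjusted p = 0.0493) and passed in 5 of the 17 alternatives. Without control replicate 2 the log2 fold change was 2.11 (adjusted p = 0.0116), and without control replicate 3 it was 1.00 (adjusted p = 0.214).

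Rec8, the gene of the other meiosis-specific kleisin (chr14:55618037-55625395, plus strand), was near the floor of detection in all libraries. It had 0, 5 and 2 reads in controls and 5, 8 and 2 reads in Eef1g-cKO libraries, or 0, 2.63 and 1.12 CPM against 4.04, 3.14 and 3.09 CPM, values that did not overlap. It did not pass the low-count filter and was not tested. Without the filter its log2 fold change was 1.39 with an edgeR adjusted p of 0.595. The pooled 15 reads against 7 gave a ratio of 2.42 with a 95% exact Clopper-Pearson interval of 0.928 to 7.01. This interval covers the counting error of reads alone and not the spread between libraries. Without molecular identifiers, amplified copies of the same molecule can be counted as separate reads, so the interval can be too narrow. No difference in Rec8 was detectable at this depth.

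Stag3, which encodes the meiosis-specific STAG protein (chr5:138280240-138312393, plus strand, 33 exons in its longest transcript), had 107, 134 and 96.3 CPM in controls and 185, 205 and 243 CPM in Eef1g-cKO libraries. All Eef1g-cKO values lay above all control values. The rise was 1.87-fold (log2 fold change 0.90, 95% interval 0.44 to 1.36, edgeR adjusted p = 0.00996). It passed in 15 of 17 alternatives and was lost without control replicate 1 (adjusted p = 0.0505) or control replicate 3 (adjusted p = 0.0703).

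The mitotic kleisin gene Rad21 (chr15:51962240-51991747, minus strand) moved the opposite way. It had 807, 656 and 823 CPM in controls and 418, 414 and 255 CPM in Eef1g-cKO libraries, with Eef1g-cKO replicate 3 the lowest. The group means were 762 ± 92.2 and 362 ± 93.1 CPM (SD, n = 3). Its log2 fold change was -1.06 (SE 0.19, 95% interval -1.45 to -0.67, edgeR adjusted p = 0.00103), and it passed as lower in all 17 alternatives, at -1.24 to -0.84. Rad21 lies on the same chromosome as Smc1b and Nipbl, both of which were higher.

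The other mitotic or shared subunit genes did not pass. Smc3, which encodes the common partner of both SMC1 proteins, had 607, 612 and 564 CPM in controls and 641, 827 and 952 CPM in Eef1g-cKO libraries, without overlap, and a log2 fold change of 0.44 (95% interval 0.10 to 0.78, edgeR adjusted p = 0.0813). Without Eef1g-cKO replicate 1 it was 0.61 and passed (adjusted p = 0.0344). Stag2, the gene of a mitotic STAG protein on the X chromosome, had 134, 138 and 128 CPM in controls and 105, 136 and 91.1 CPM in Eef1g-cKO libraries, which overlapped (log2 fold change -0.25, 95% interval -0.74 to 0.24, adjusted p = 0.541). Smc1a, also X-linked and the mitotic counterpart of Smc1b, was low and uneven, with 58.0, 45.7 and 14.6 CPM in controls and 26.7, 25.1 and 61.8 CPM in Eef1g-cKO libraries. Its interval, -1.14 to 0.92 around a log2 fold change of -0.11, includes the value fitted for Rad21.

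The loader genes gave 1 marginal call. Nipbl, whose protein loads cohesin on chromatin, had 440, 372 and 314 CPM in controls and 479, 470 and 917 CPM in Eef1g-cKO libraries, where replicate 3 stood far above the other two. It passed with a log2 fold change of 0.72 (SE 0.23, 95% interval 0.24 to 1.20, edgeR adjusted p = 0.0454). The call was lost in 10 of 17 alternatives, and without Eef1g-cKO replicate 3 the log2 fold change was 0.37 (adjusted p = 0.119). Mau2, the partner of Nipbl, had 9.92, 9.97 and 16.8 CPM in controls and 12.9, 6.27 and 13.9 CPM in Eef1g-cKO libraries, from 9 to 30 reads a library, and the groups overlapped (log2 fold change -0.20, 95% interval -1.59 to 1.20, adjusted p = 0.882).

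Of the 9 tested members, 5 had CPM values in Eef1g-cKO libraries that all lay above those of controls and 1, Rad21, had values that all lay below. Over all tested genes such separation occurred upwards in 16.4% and downwards in 18.1%. The summed CPM of the 4 meiosis-specific genes ran from 1122 to 1433 in controls and from 2821 to 4220 in Eef1g-cKO libraries, of which Smc1b was by far the greatest part. The sum of Smc1a, Smc3, Rad21 and Stag2 ran from 1451 to 1605 in controls and from 1191 to 1402 in Eef1g-cKO libraries. Within this sum Rad21 was lower and Smc3 higher in every Eef1g-cKO library than in any control, and Smc1a and Stag2 overlapped.

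**Figure D2:**
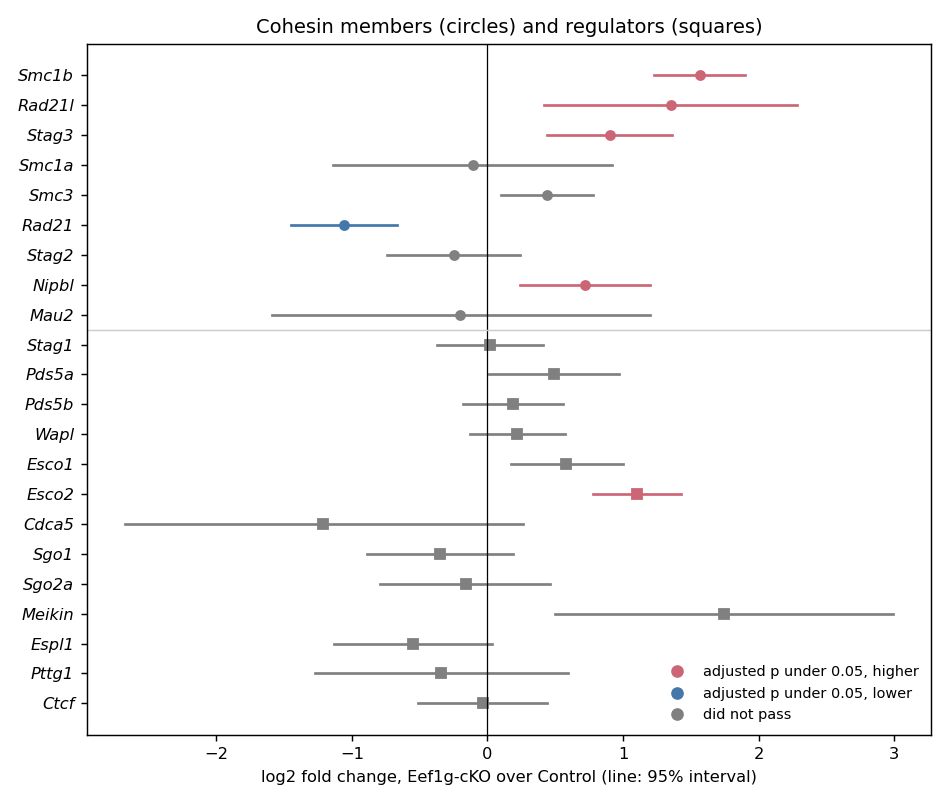
Log2 fold change (Eef1g-cKO over control, x axis) with 95% interval for the 9 tested cohesin members (circles) and the 13 tested cohesin regulators (squares), coloured where the edgeR adjusted p was under 0.05. Smc1b at 1.57 and Rad21 at -1.06 lie on opposite sides of 0, and Esco2 at 1.10 is the coloured regulator.

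Levels of different genes were compared per kilobase of exon sequence, with all exons of a gene joined. This length exceeded the longest transcript unevenly, at 5733 against 4669 bases for Stag3, 8273 against 6171 for Stag2 and 4047 for both in Smc1b. The order of genes with close values, such as Stag3 and Stag2 in controls, can depend on this choice. In controls Smc1b was highest at 273 ± 32.8 CPM per kb (SD, n = 3), followed by Rad21 at 180.0 ± 21.8, Smc3 at 107 ± 4.70, Nipbl at 39.9 ± 6.71 and Stag3 at 19.6 ± 3.38 CPM per kb, each separated from its neighbour in every library. Stag2 at 16.1 ± 0.598, Rad21l at 14.1 ± 9.93 and Smc1a at 6.83 ± 3.88 CPM per kb followed, with Rad21l overlapping both of its neighbours, and Mau2 at 1.34 and Rec8 at 0.425 CPM per kb were lowest. In Eef1g-cKO libraries the order of Rad21 and Smc3 was exchanged, with Smc3 at 146 ± 28.2 and Rad21 at 85.6 ± 22.0 CPM per kb, the latter overlapping with Nipbl at 66.0 ± 27.2. Rad21l, at 36.5 ± 4.95 CPM per kb, had moved above Stag2 (13.4 ± 2.81) and overlapped with Stag3 (36.8 ± 5.08). Per kb, Smc1b exceeded Smc1a in every library of both groups.

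Ratios of a meiosis-specific gene to its mitotic counterpart within a library do not depend on how libraries are scaled. The Rad21l to Rad21 ratio per kb was 0.0567, 0.164 and 0.0338 in controls and 0.328, 0.363 and 0.701 in Eef1g-cKO libraries, without overlap. On the log2 scale it averaged -3.88 ± 1.16 and -1.19 ± 0.60 (SD, n = 3), a difference of 2.68 (exact permutation test, 2-sided p = 0.1, adjusted over 4 ratios p = 0.133). The Stag3 to Stag2 ratio was 1.16, 1.40 and 1.08 in controls and 2.54, 2.16 and 3.82 in Eef1g-cKO libraries, a log2 difference of 1.19 (exact permutation p = 0.1, adjusted p = 0.133). The smallest p that 3 against 3 libraries allow is 0.1, so neither could pass. The Smc1b to Smc1a ratio was 24.4, 38.9 and 103 in controls and 178, 144 and 89.0 in Eef1g-cKO libraries, which overlapped because the ratio of control replicate 3, with the fewest Smc1a CPM, exceeded that of Eef1g-cKO replicate 3, with the most (log2 difference 1.52, exact permutation p = 0.2, adjusted p = 0.2). Rec8 to Rad21, with 0.5 reads added because of the library without Rec8 reads, differed by 2.84 on the log2 scale (exact permutation p = 0.1, adjusted p = 0.133) and rests on 22 Rec8 reads. With 1 library left out the Rec8 to Rad21 difference ran from 1.99 (without control replicate 1) to 3.60 (without control replicate 2), and with 2 reads added in place of 0.5 it was 2.24. Leaving out 1 library gave 2.18 (without control replicate 3) to 3.32 (without control replicate 2) for Rad21l to Rad21, 0.96 to 1.37 for Stag3 to Stag2 and 1.06 to 2.09 for Smc1b to Smc1a.

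**Figure D3:**
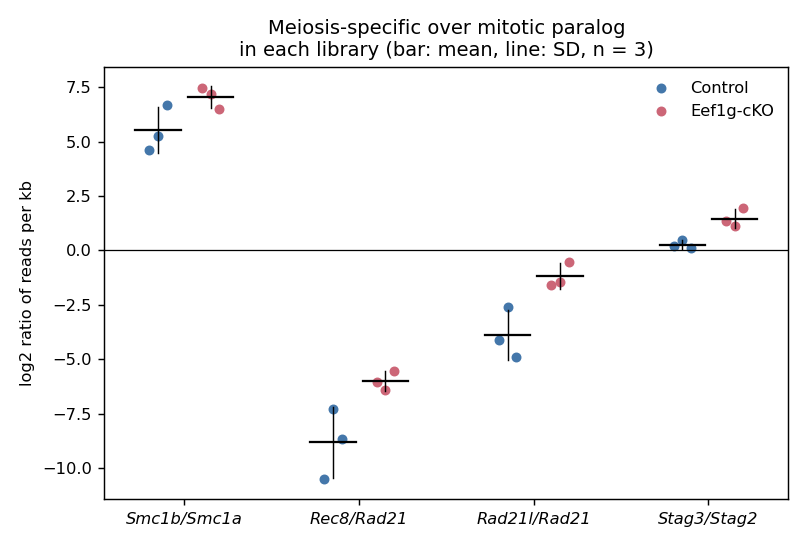
Log2 ratio per kb of each meiosis-specific cohesin gene to its mitotic counterpart (y axis) in 3 control and 3 Eef1g-cKO libraries, with bars for means and lines for SD. Rad21l/Rad21 and Stag3/Stag2 are higher in all 3 Eef1g-cKO libraries than in any control, and Smc1b/Smc1a overlaps.

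As shares of a subunit class per kb, Rad21 made up 94.7%, 85.5% and 96.6% of kleisin transcripts in controls and 74.6%, 72.8% and 58.4% in Eef1g-cKO libraries, while Rad21l made up 5.26%, 14.0% and 3.19% and then 24.3%, 26.4% and 40.6%. Rad21 remained the most abundant kleisin transcript in every library. Among STAG transcripts Stag3 made up 33.5% ± 4.52 in controls and 50.1% ± 2.66 in Eef1g-cKO libraries (SD, n = 3), Stag2 27.7% ± 1.54 and 18.5% ± 4.24, and Stag1 38.8% ± 5.10 and 31.4% ± 1.59. Smc1b made up 97.5% ± 1.49 and 99.2% ± 0.285 of SMC1 transcripts. Shares within a class depend on the gene lengths used, are not independent of each other and were not tested.

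Each ring holds an SMC1 protein and an SMC3 protein, and the transcripts were also set against Smc3. Smc1b per kb was 2.25, 2.81 and 2.59 times Smc3 in controls and 7.20, 4.23 and 5.62 times Smc3 in Eef1g-cKO libraries. Rad21 was 1.74, 1.40 and 1.91 times Smc3 in controls and 0.854, 0.656 and 0.351 times in Eef1g-cKO libraries. Both ratios were separated between the groups, in opposite directions. Relative to Smc3, Rad21l and Stag3 were also higher without overlap and Stag2 was lower without overlap, although the CPM of Stag2 overlapped. Rec8, Smc1a, Nipbl and Mau2 overlapped. These ratios were not tested, and proteins were not measured here.

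Sycp3, which encodes a component of the chromosome axis, gave a second reference, since its own transcript rose (1341 ± 109 to 2904 ± 290 CPM, log2 fold change 1.11, edgeR adjusted p = 3.31e-05). Stag3 per kb was 0.0191, 0.0203 and 0.0159 of Sycp3 in controls and 0.0152, 0.0162 and 0.0165 in Eef1g-cKO libraries, which overlapped. Rad21l was 0.0108, 0.0220 and 0.00608 of Sycp3 in controls and 0.0151, 0.0161 and 0.0164 in Eef1g-cKO libraries, which lay inside the control range. Stag3 and Rad21l were thus not separated between the groups relative to Sycp3. Smc1b went from 0.257 ± 0.0106 to 0.352 ± 0.0569 of Sycp3 without overlap. Smc3 went from 0.102 ± 0.00903 to 0.0630 ± 0.00756 and Rad21 from 0.171 ± 0.0322 to 0.0381 ± 0.0127, both without overlap. Stag2 and Mau2, whose CPM overlapped, were also lower without overlap by this measure. Since Sycp3 itself rose, a gene whose CPM did not change falls relative to it. Smc3 fell by this measure although its CPM were higher in every Eef1g-cKO library than in any control. These ratios were described and not tested.

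The 4 chromosome axis genes on a list of such genes all passed as higher with log2 fold changes over 1, at 1.09 for Sycp2, 1.11 for Sycp3, 1.72 for Hormad1 and 1.26 for Hormad2, against 3.42% of all tested genes. The proteins of these genes assemble on the cohesin core. The list's median was 1.18, beside 1.35 for the 3 tested meiosis-specific cohesin genes and -0.18 for the 4 mitotic or shared ones.

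Among regulators of cohesin 1 gene passed. Of 16 genes, 13 were tested, 1 passed as higher, 0 passed as lower and 12 did not pass, with a median log2 fold change of 0.02. This count is near the 7.8% higher and 6.01% lower over all tested genes and is no result about the regulators as a list. Without adjustment, p was under 0.05 for 4 higher and 0 lower genes, and DESeq2 and limma-voom each called 2 higher and 0 lower. Esco2, which encodes an acetyltransferase that acts on SMC3 as cohesion is established during DNA replication, had 394, 502 and 519 CPM in controls and 1033, 949 and 1064 CPM in Eef1g-cKO libraries. Its rise was 2.15-fold (log2 fold change 1.10 with an SE of 0.16, adjusted p = 0.000147 by edgeR) and passed in all 17 alternatives. The related Esco1 had 220 ± 34.2 and 333 ± 72.4 CPM (log2 fold change 0.58, adjusted p = 0.057).

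Meikin, whose protein protects centromeric cohesion with shugoshin in the first meiotic division, had 3.82, 8.92 and 10.1 CPM in controls and 19.4, 24.3 and 35.5 CPM in Eef1g-cKO libraries, without overlap, and did not pass (log2 fold change 1.74 with an SE of 0.59, adjusted p = 0.0574 by edgeR). Cdca5, the gene of sororin, which protects cohesin on replicated DNA, had 36, 44 and 42 reads in controls and 8, 55 and 0 reads in Eef1g-cKO libraries. These gave 27.5, 23.1 and 23.5 CPM against 6.47, 21.6 and 0 CPM, lower without overlap, and Cdca5 did not pass (log2 fold change -1.21, SE 0.70, edgeR adjusted p = 0.28). The cohesin release factor gene Wapl had a log2 fold change of 0.22, Pds5a 0.49 and Pds5b 0.19, the STAG gene Stag1 0.02, the shugoshin genes Sgo1 -0.35 and Sgo2a -0.16, separase (Espl1) -0.55, securin (Pttg1) -0.34 and Ctcf, which halts cohesin on chromatin, -0.03, all with adjusted p over 0.05. The CPM of Espl1 were also lower in every Eef1g-cKO library than in any control. Hdac8, Sgo2b and Ctcfl were too low to test.

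**Figure D4:**
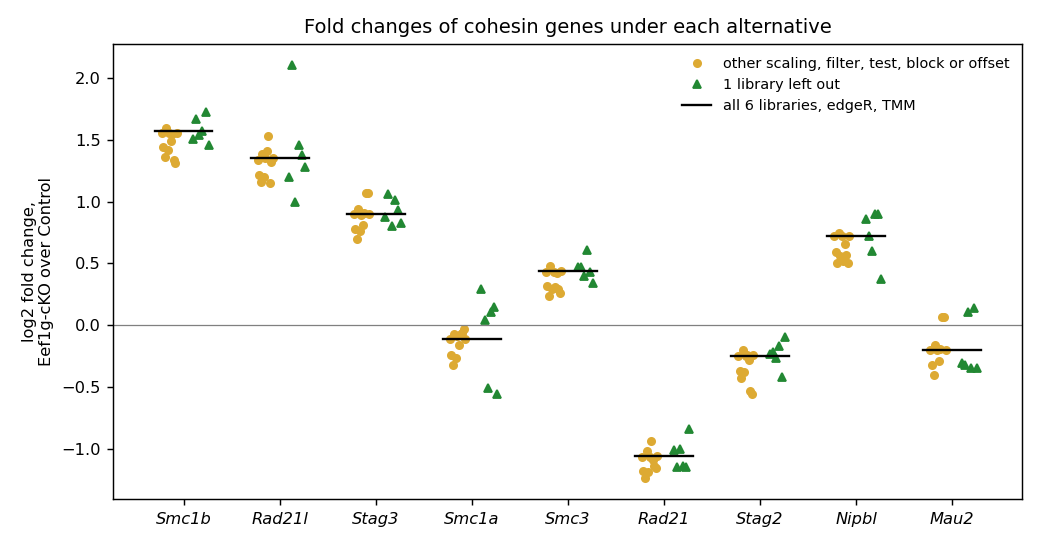
Log2 fold change (Eef1g-cKO over control, y axis) of the 9 tested cohesin members in the reported fit (bar) and in the 17 alternatives (16 for Mau2, which the stricter filter removed), with circles for other scalings, filters, tests or terms and triangles for fits without 1 library. Smc1b stays at 1.31 to 1.73 and Rad21 at -1.24 to -0.84, whereas Smc1a and Mau2 have values on both sides of 0.

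Marker lists of the sorted cells and of other testis cell types moved with genotype. The summed CPM of 8 L/Z spermatocyte genes, including Sycp3 and Hormad1, ran from 8019 to 8748 in controls and from 16077 to 20809 in Eef1g-cKO libraries. Sycp1 was the greatest part of this sum, with means of 5101 CPM in controls and 10487 CPM in Eef1g-cKO libraries. Of the 8 genes 4 were higher (Sycp1, Sycp3, Dmc1 and Hormad1) and 1 lower (Stra8, which passed in 11 of 17 alternatives). The 3 not passing were Spo11 (log2 fold change 0.07), Meiob (0.06) and Prdm9 (0.84). The counts of this paragraph stand against 7.8% higher and 6.01% lower over all tested genes. Of 10 spermatogonia genes 5 were tested and 4 passed as lower (Kit, Sall4, Dmrt1 and Uchl1), with sums of 1388 to 1596 CPM in controls and 674 to 799 CPM in Eef1g-cKO libraries. Sums of 8 Sertoli cell genes were 60.3 to 190.0 and 1.54 to 30.7 CPM (1 of 3 tested lower), of 6 peritubular and stromal genes 161 to 294 and 18.5 to 73.7 CPM (3 of 4 tested lower), and of 9 pachytene and later genes 24.2 to 43.1 and 3.09 to 18.4 CPM (1 of 2 tested lower). The 5 Leydig genes summed to at most 10.7 CPM with 0 tested, and 6 blood and macrophage genes to 6.72 to 77.9 and 3.24 to 75.7 CPM with 0 of 1 tested passing. Cyp17a1, Hsd3b1, Adam3, Acrv1 and Cd68 had 0 reads in all 6 libraries. The part of these shifts in the cohesin results was not tested.

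**Figure D5:**
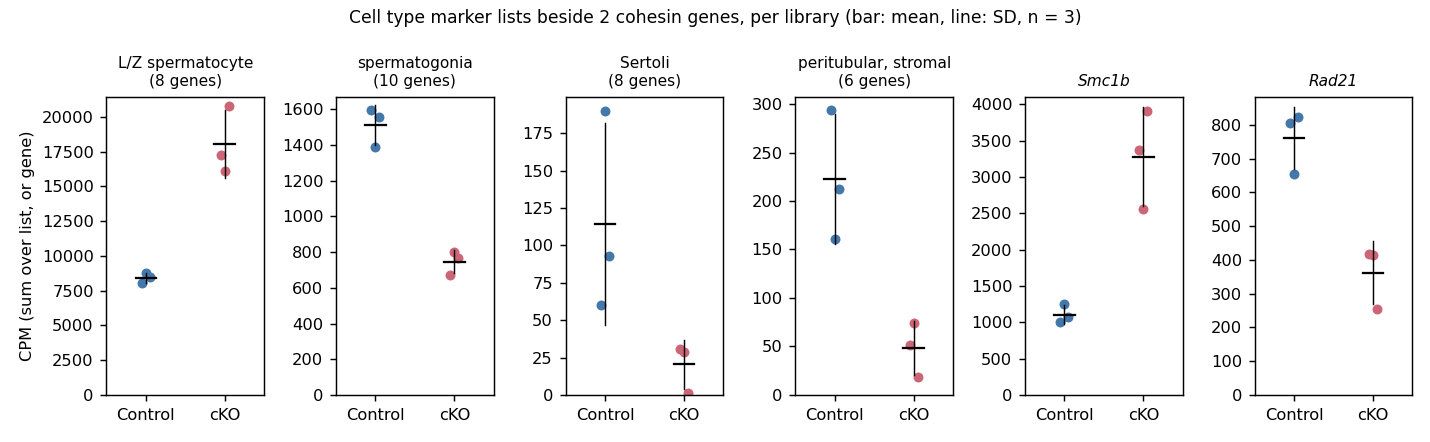
Summed CPM of 4 cell type marker lists beside the CPM of Smc1b and Rad21 (y axes from 0, panels scaled separately) in 3 control and 3 Eef1g-cKO libraries, with bars for means and lines for SD. L/Z marker sums, of which Sycp1 is the greatest part, and Smc1b are higher in every Eef1g-cKO library than in any control. Spermatogonia, Sertoli and peritubular sums and Rad21 are lower.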

How the data were processed

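RNA was measured in 6 libraries of FACS-sorted L/Z spermatocytes, made by full-length cDNA amplification of polyadenylated RNA without molecular identifiers. The authors processed the reads with fastp, aligned them to GRCm38 with HISAT2 2.2.1 and counted reads by gene using featureCounts 2.0.6. Values were deposited as raw counts, and the strand setting of the counting is not given in the sources used here. The sample titles gave each library's group and number. The members and gene lists were chosen with earlier results of these data known.

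Genes kept by filterByExpr in edgeR 4.0.16 (R 4.3.3), with a minimum count of 10 and minimum total of 15, numbered 8513 and held 98.1% of the reads. TMM gave the scaling. Genotype was the only term of the quasi-likelihood F test (robust setting), with Benjamini-Hochberg adjustment over all tested genes. The SE of a log2 fold change was its absolute value over the square root of F. CPM per kb used the gene lengths of the deposited table. Ratios were tested by exact permutation. The 17 alternatives were other scalings and filters, DESeq2 1.42.0, limma-voom (limma 3.58.1), a replicate block, a GC content offset (99.9% of tested genes had a value), both together, exclusion of mitochondrial and rRNA genes, and omission of each library. The reported edgeR fit, but none of the 17 alternatives, was also run on simulated counts with known changes. Positions and exon numbers came from GENCODE M21 (GRCm38), where 98.3% of genes had the same position. Named genes were the members, Eef1g, the genes of the lists and, for each meiosis-specific gene, the 3 genes nearest in pattern. No 2 libraries agreed within sampling noise (chi-square per degree of freedom at least 6.37).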

Additional observations from a re-analysis of the deposited data

How the results depend on the processing

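The rise of Smc1b and the fall of Rad21 passed in each of the 17 alternatives. The number of members passing as higher was 4 in the reported fit and 2 with a filter of 10 reads in every library, upper-quartile scaling, scaling by library totals alone, the GC content offset, the GC content offset with the replicate block, or a required absolute log2 fold change over 1. Leaving out 1 library gave 1 to 4 higher members, with 1 (Smc1b) without control replicate 1 or control replicate 3 and 2 without Eef1g-cKO replicate 3, and 1 lower member (Rad21) each time. Regulators passing as higher were 1 in the reported fit and 2 without the low-count filter, with DESeq2 or with limma-voom, and 1 to 2 when 1 library was left out. Regulators passing as lower were 0 to 1, with 1 without Eef1g-cKO replicate 2. The log2 fold change of Smc1a changed sign without control replicate 1 (0.29), control replicate 2 (0.04), Eef1g-cKO replicate 1 (0.11) or Eef1g-cKO replicate 2 (0.15; range when 1 library was left out -0.56 to 0.29), and that of Mau2 with the GC content offset (0.07), with it and the replicate block (0.07), without control replicate 3 (0.11) or without Eef1g-cKO replicate 2 (0.14; range -0.35 to 0.14). The cause was not tested. Over all tested genes the median of the log2 fold changes shifted by -0.122 under upper-quartile scaling and by -0.189 under library totals, and Smc1b, Rad21l, Stag3 and Rad21 kept their direction under both. The 4 ratios kept their direction with a pseudocount of 2 reads and with each of the 6 libraries left out. For Rec8 to Rad21, Rad21l to Rad21 and Stag3 to Stag2, whose groups did not overlap, omission of a library could not reverse the direction. Pairing same-numbered libraries leaves a difference of means unchanged, so the replicate block was no check of the ratios.

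With the replicate block 3 members passed as higher and 1 as lower, and Nipbl was the member lost (log2 fold change 0.66, adjusted p = 0.091). Same-numbered libraries of the groups did not deviate together (correlations -0.0371, 0.0192 and -0.0486). The labels give them only a common number. The paper describes its controls as littermates, and these correlations do not settle whether same-numbered libraries shared a litter or a preparation. Depth limits the genes with few reads, with at most 8 reads a library for Rec8, 9 to 30 for Mau2, 26 to 87 for Smc1a and 19 to 150 for Rad21l.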

Other observations

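Transcripts of the other SMC complexes of the cell moved unevenly. Of the 8 condensin genes, whose proteins compact chromosomes, all tested, 3 passed as higher, 0 as lower (edgeR; 3 higher and 0 lower at an unadjusted p under 0.05, and by DESeq2 and limma-voom) and 5 did not pass, with a median log2 fold change of -0.13. Over all tested genes 7.8% passed as higher and 6.01% as lower. Smc4 went from 1613 ± 77.9 to 3477 ± 687 CPM (SD, n = 3; log2 fold change 1.11, edgeR adjusted p = 7.09e-05), while Smc2, which encodes the partner of SMC4 in both condensins, had 455 ± 28.4 and 428 ± 57.3 CPM (log2 fold change -0.09, adjusted p = 0.766). The other calls were Ncapg (1.39, adjusted p = 0.00181), a subunit of condensin I, and Ncapg2 (0.70, adjusted p = 0.00642), its counterpart in condensin II. Of 7 genes of the SMC5/6 complex, which acts in DNA repair, 6 were tested. Smc5 (0.60, adjusted p = 0.0435, passing in 6 of 17 alternatives) and Smc6 (0.80, adjusted p = 0.00636) passed as higher, and 0 passed as lower by edgeR, DESeq2 or limma-voom, with 2 lower at an unadjusted p under 0.05. Differences between these complexes and cohesin were not tested.

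The genes nearest in pattern to each meiosis-specific cohesin gene were found by the root mean square difference of log2(CPM + 1), centred on each gene's mean over the 6 libraries, among 3645 tested genes with a mean of at least 50 CPM. For Smc1b they were Ift80 (0.0957), Dip2c (0.0965) and Ccdc82 (0.0991), and for Stag3 Ide (0.0704), Lpgat1 (0.0921) and Chmp3 (0.0938). For Rad21l they were Alcam (0.280), 1700028K03Rik (0.319) and Igf2r (0.344), and for Rec8 Scoc (0.291), Pde8a (0.299) and Lonp2 (0.301), which are less alike. The pattern of Rec8 rests on 0 to 8 reads a library. The added 1 CPM shrinks its differences far more than those of genes with at least 50 CPM, so its neighbours carry little information. With 6 libraries in 2 groups, any gene with a similar change between the groups comes close by this measure.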
